A study of Mus musculus with 2 samples.

Results

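Insulin signalling in the liver was described here by the mRNA levels of 10 genes, Insr, Irs1, Irs2, Pik3r1, Pik3ca, Akt1, Akt2, Foxo1, Foxo3 and Sik1, which run from the insulin receptor to the FOXO transcription factors and add the kinase Sik1. They were taken by symbol from 22609 counted genes. All 10 were listed in both libraries, and all 10 were among the 11411 genes measured, meaning genes with at least 50 reads summed over the libraries. The study asked how, on a high-fat diet, the expression of liver genes depends on Lrg1, which encodes a secreted glycoprotein with leucine-rich repeats. It holds 1 liver library from male Lrg1 whole-body knockout mice (labelled Lrg1 KO) and 1 from male wild-type mice (WT). Both groups were of the C57BL/6 strain and both received the same diet, with 45% of calories from fat, from the age of 8 weeks and for 16 weeks. Neither group was fed a control diet. The labels leave unstated whether 1 mouse or a pool gave each library, how the mice had fed and when tissue was taken.

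Insulin binds its receptor, a tyrosine kinase, which phosphorylates the substrate proteins IRS1 and IRS2. These recruit PI3-kinase, whose lipid product brings AKT to the membrane, and active AKT phosphorylates FOXO proteins so that they leave the nucleus. In fasted liver, nuclear FOXO1 raises genes of glucose output as well as Irs2, and glucagon acts in parallel through cAMP and the factor CREB, which induces Sik1. These controls act largely on proteins by phosphorylation, and read counts measure mRNA alone.

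The library labelled Lrg1 KO held 18738397 reads in genes and the WT library 23311906. Levels are given in CPM, reads scaled to TMM-adjusted library size, and intervals are exact at 95% and cover the error of counting alone. Since each group had 1 library, no test was possible, and a difference is one between 2 libraries, which need not be one between genotypes. Lrg1 had 17572 reads in the library labelled Lrg1 KO and 26958 in WT, 911.2 against 1190 CPM, a ratio of 0.766 (0.751 to 0.780). The label thus goes against an abundant transcript, although the labels do not state which part of the gene was deleted. All directions below rest on that label. The 8 hepatocyte markers, Alb, Apoa1, Ttr, Tf, Hnf4a, Cps1, Cyp2e1 and Apob, were abundant in both libraries, summing to 120678 CPM in the library labelled Lrg1 KO and 137473 CPM in WT. Of the 8, 7 were lower in the library labelled Lrg1 KO, against 51.7% of all measured genes. With scaling by total count 5 were lower. The 5 pancreatic acinar markers were at 0 reads in both. Their intervals reach up to 0.191 CPM in the library labelled Lrg1 KO and 0.163 CPM in WT.

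Sik1 and Irs2 were more than 2-fold higher in the library labelled Lrg1 KO, and Irs1 was higher by a smaller ratio. The receptor Insr, the catalytic PI3-kinase subunit Pik3ca and the kinase Akt2 lay close to their WT levels, with intervals that included no difference. Pik3r1, Foxo1 and Foxo3 were lower. Of the 10 genes, 2 were at least 2-fold higher, against 1.7% of all measured genes, and 0 were at least 2-fold lower, against 2.5%. The 10 genes and the lists below were chosen with earlier results of these data known. Counts set beside a share of all genes are therefore a description and no test. The median log2 ratio of the 10 genes was 0.03, beside -0.01 over all measured genes. Of the 10, 6 lay above 0, against 48.3% of all measured genes (7 with scaling by total count, through Insr). Counted in either direction, 2 of 10 were 2-fold apart, against 4.2% of measured genes. At 1.5-fold, Sik1, Irs2 and Irs1 were higher, against 5.85% of measured genes, and Foxo3 was lower, against 6.91%. In bulk tissue, fewer cells of a type and less RNA per cell cannot be told apart.

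**Figure D1:**
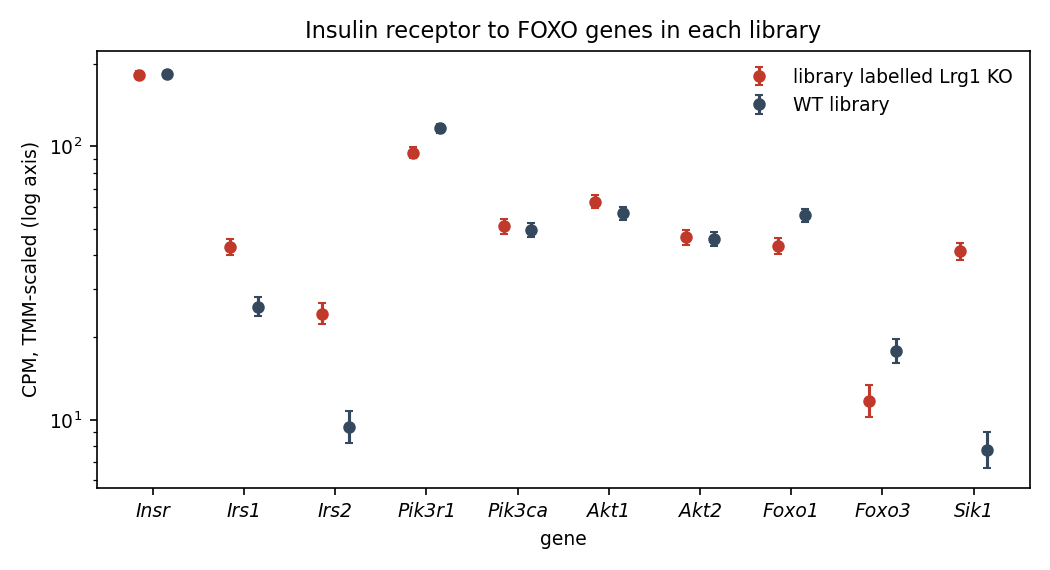
Level of each of the 10 genes in CPM on a log axis, with the library labelled Lrg1 KO at the left of each pair and the WT library at the right; bars are exact 95% Poisson intervals, and each point is 1 library. The largest gap is that of Sik1, at 41.4 CPM in the library labelled Lrg1 KO and 7.77 CPM in WT, while the points of Insr nearly coincide.

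At the top of the pathway, Insr, the insulin receptor, had 3514 reads in the library labelled Lrg1 KO and 4161 in WT. These were 182 CPM (176 to 188) and 184 CPM (178 to 189), a ratio of 0.992 (0.948 to 1.038). Both levels lay inside each other's intervals. Its log2 ratio was -0.01 with TMM and 0.07 with scaling by total count. Igf1r, the related receptor for IGF1, was rare in both, with 77 and 65 reads, or 3.99 and 2.87 CPM, and its ratio of 1.39 (0.987 to 1.97) included no difference. Among the other receptors, substrates and adaptors fixed for comparison, 10 of 13 were measured, with a median log2 ratio of 0.01. Of the 10, 0 were 2-fold apart in either direction, against 4.2% of all measured genes. Insrr and Irs4 had 0 reads in both libraries, and Irs3 had 5 reads in the library labelled Lrg1 KO and 2 in WT. Of the adaptors, Shc1, which links receptors to the Ras pathway, had a log2 ratio of -0.31, Grb2 of -0.14, and Sos1, which loads Ras with GTP, of 0.23.

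The insulin receptor substrates differed most among the proximal genes. Irs2, a main substrate in hepatocytes, had 472 reads in the library labelled Lrg1 KO and 214 in WT. Its level was 24.5 CPM (22.3 to 26.8) in the library labelled Lrg1 KO and 9.45 CPM (8.22 to 10.8) in WT. The intervals lay far apart, and the ratio was 2.59 (2.20 to 3.06), a log2 ratio of 1.37 that 0.727% of measured genes exceeded. Irs1, the other widely expressed substrate, had 828 and 588 reads, or 42.9 CPM (40.1 to 46.0) in the library labelled Lrg1 KO and 26.0 CPM (23.9 to 28.1) in WT. Its intervals did not meet either, and the ratio was 1.65 (1.49 to 1.84), exceeded by 3.69% of measured genes. Irs1 shares 2822 exonic bases with Gm9747 on the opposite strand and Irs2 shares 162 with 9530052E02Rik, in GENCODE M21. No source used here gives the strand setting of the counting, so reads of these partners cannot be told apart from those of Irs1 and Irs2.

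The balance between the substrates also differed. Irs2 made up 36.3% (33.7 to 39.0) of the reads of Irs1 plus Irs2 in the library labelled Lrg1 KO and 26.7% (23.7 to 29.9) in WT. The ratio of Irs2 to Irs1 reads was thus 1.57 times (1.29 to 1.91) its WT value, a quantity that does not depend on how the libraries are scaled. Per kilobase of exon the share of Irs2 was 45.2% in the library labelled Lrg1 KO and 34.5% in WT. Summed, both substrates had 67.4 CPM in the library labelled Lrg1 KO and 35.4 CPM in WT, a ratio of 1.90 (1.74 to 2.08). Relative to Insr within the same library, the reads of Irs2 were 2.61 times (2.20 to 3.10) and those of Irs1 1.67 times (1.48 to 1.87) their WT value.

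The promoters of Irs2 and Irs1, the substrates that were both higher, are shown because they carry the same letters close to their start sites. Both are RefSeq sequences of GRCm38.p6 from 250 bases before to 50 after the annotated start, on the minus strand, at chr8:11008880-11009179 for Irs2 and chr1:82291390-82291689 for Irs1. Capitals mark matches on either strand to the E-box CACGTG, which basic helix-loop-helix factors bind, to TGTTTTG, letters found in insulin response sequences that FOXO proteins bind, and to TGACG, the core of the cAMP response element, which reads CGTCA where it lies on the opposite strand. The sequences had been seen when the motifs were chosen.
Irs2: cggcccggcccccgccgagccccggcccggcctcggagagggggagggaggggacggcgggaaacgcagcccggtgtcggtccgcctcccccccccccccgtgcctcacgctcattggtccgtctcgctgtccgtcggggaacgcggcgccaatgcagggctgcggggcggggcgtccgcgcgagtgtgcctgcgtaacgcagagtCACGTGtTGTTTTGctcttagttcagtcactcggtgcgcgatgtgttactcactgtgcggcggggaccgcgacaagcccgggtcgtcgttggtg
Irs1: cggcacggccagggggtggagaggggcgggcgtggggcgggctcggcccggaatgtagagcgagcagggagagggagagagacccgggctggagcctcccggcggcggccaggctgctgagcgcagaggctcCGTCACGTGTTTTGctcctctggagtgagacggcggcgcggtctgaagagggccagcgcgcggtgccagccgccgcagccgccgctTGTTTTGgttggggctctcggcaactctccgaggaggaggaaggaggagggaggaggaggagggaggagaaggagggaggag
In Irs2 the E-box begins 44 bases before the start and TGTTTTG follows from 37 bases before it. In Irs1 the E-box begins 115 bases before the start and the following TGTTTTG, 111 bases before it, overlaps its last letters. The Irs1 window holds another TGTTTTG 32 bases before the start, and a CGTCA that overlaps the E-box. Of 32851 promoter windows of this length, 7.15% hold CACGTG and 6.28% hold TGTTTTG, and 134 (0.408%) hold both. In 13 of them (0.0396%), Irs1 and Irs2 included, TGTTTTG begins within 20 bases after the first letter of CACGTG on the same strand. The order, strand and spacing counted were also chosen with both sequences seen, so that share is a description alone. The longest runs of letters shared by both windows are 2 of 10 bases each, gtCACGTGtt, which occurs in 16 of the 32851 windows, and TGTTTTGctc, which occurs in 14. A match of letters is a description of the sequence and no evidence of binding in these livers.

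At the step of PI3-kinase, Pik3r1 lay below its WT level and Pik3ca close to it. Pik3r1, which encodes the regulatory subunit p85 alpha that docks on IRS proteins, had 1828 reads in the library labelled Lrg1 KO and 2635 in WT. These were 94.8 CPM (90.5 to 99.2) and 116 CPM (112 to 121), intervals that did not meet, and a ratio of 0.815 (0.767 to 0.865). A lower ratio was found for 18.9% of measured genes. Pik3ca, which encodes the catalytic subunit p110 alpha, had 985 and 1120 reads, or 51.1 CPM in the library labelled Lrg1 KO and 49.4 CPM in WT. Its ratio of 1.03 (0.947 to 1.13) included no difference. The reads of Pik3r1 per read of Pik3ca were 1.86 in the library labelled Lrg1 KO and 2.35 in WT, 0.789 times the WT value (0.710 to 0.877). All 12 other PI3-kinase subunit genes were measured, and 0 of them were 2-fold apart in either direction, against 4.2% of all measured genes. Their median log2 ratio was 0.08 (-0.21 over the 6 with at least 200 reads). Pik3r5, a regulatory subunit of the immune cell enzyme, was farthest from 0 at -0.84, on 26 and 55 reads. Pik3c2b was at 0.42, Pik3r3 at 0.35 and Pik3cd at -0.29, each with an interval that included no difference.

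Akt transcripts lay near their WT levels. Akt1 had 1212 reads in the library labelled Lrg1 KO and 1292 in WT, or 62.9 CPM (59.4 to 66.5) and 57.0 CPM (54.0 to 60.2). The level intervals overlapped, and the interval of the ratio, 1.10 (1.02 to 1.19), ended just above no difference. Akt2, the isoform most tied to insulin action on metabolism, had 896 and 1040 reads, or 46.5 CPM in the library labelled Lrg1 KO and 45.9 CPM in WT, a ratio of 1.01 (0.925 to 1.11). Akt2 made up 42.5% (40.4 to 44.6) of the reads of both genes in the library labelled Lrg1 KO and 44.6% (42.6 to 46.6) in WT, and these intervals overlapped. Pdpk1, the kinase that activates AKT, was at 53.8 CPM in the library labelled Lrg1 KO and 51.5 CPM in WT, with an interval that included no difference. In the list of Pdpk1 with further AKT, mTOR, GSK3 and SGK pathway genes, all 24 were measured, with a median log2 ratio of 0.02. Of the 24, 1 was at least 2-fold higher, against 1.7% of all measured genes, and 0 were at least 2-fold lower, against 2.5%. The higher gene was Prr5l, an mTOR complex partner, on 58 reads in the library labelled Lrg1 KO and 19 in WT (ratio 3.51, 2.10 to 6.38). Sgk1, a kinase related to AKT, was at a log2 ratio of 0.71, Prr5 at 0.50 and Tbc1d7, a subunit of the TSC complex, at -0.79.

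**Figure D2:**
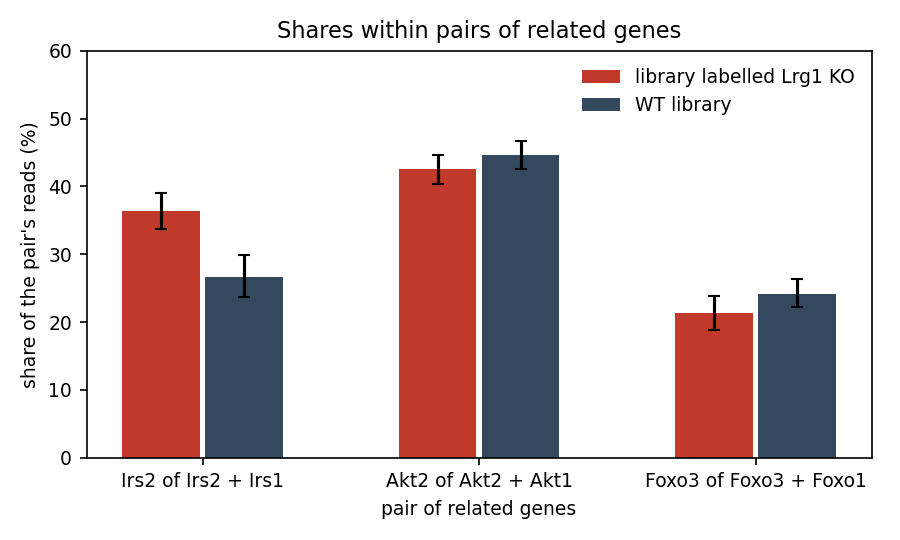
Share of Irs2, Akt2 and Foxo3 in the reads of each pair of related genes, in percent, with the library labelled Lrg1 KO at the left and the WT library at the right; bars start at 0 and error bars are exact 95% binomial intervals. The intervals are separate for Irs2, at 36.3% in the library labelled Lrg1 KO and 26.7% in WT, and overlap for Akt2 and Foxo3.

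Foxo1 and Foxo3, the transcription factors that AKT holds out of the nucleus, were both lower in the library labelled Lrg1 KO. Foxo1, the main FOXO gene of glucose output in liver, had 834 reads there and 1269 in WT, or 43.2 CPM (40.4 to 46.3) and 56.0 CPM (53.0 to 59.2). The intervals did not meet, and the ratio was 0.772 (0.707 to 0.843), a log2 ratio of -0.37. A lower ratio was found for 13.8% of measured genes. Foxo3 had 226 and 405 reads, or 11.7 CPM (10.2 to 13.4) in the library labelled Lrg1 KO and 17.9 CPM (16.2 to 19.7) in WT. Its ratio was 0.656 (0.555 to 0.773), a log2 ratio of -0.61, and 6.49% of measured genes had a lower one. Neither was 2-fold lower. Foxo3 made up 21.3% (18.9 to 23.9) of the reads of both in the library labelled Lrg1 KO and 24.2% (22.2 to 26.3) in WT, which overlapped. Foxo4, a further FOXO gene, was at the other side of 0, with 38.6 CPM in the library labelled Lrg1 KO and 32.4 CPM in WT, a ratio of 1.19 (1.08 to 1.32). Foxo1 shares 674 exonic bases with the antisense gene Gm20402, so its reads are uncertain in the way described for Irs1.

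Another 18 genes encode other FOXO and FOXK factors, FOXO-modifying enzymes and 14-3-3 proteins, which hold phosphorylated FOXO in the cytoplasm. Of these, 17 were measured and 0 were 2-fold apart in either direction, against 4.2% of all measured genes. Their median log2 ratio was -0.01. Sirt1, a deacetylase that acts on FOXO proteins, was at 0.68, Stk3 at 0.51, Prmt1 at 0.44 and Foxk1 at -0.39. Genes that restrain insulin signalling were also near 0, with a median of -0.01 over 17 measured of 19. Among them Trib3, a pseudokinase described as an AKT inhibitor, was 2-fold lower, at 8.82 CPM in the library labelled Lrg1 KO and 21.8 CPM in WT (log2 ratio -1.30), and 0 were 2-fold higher. The shares of all measured genes were 2.5% at least 2-fold lower and 1.7% at least 2-fold higher. Ptpn1, which dephosphorylates the receptor, was at 34.7 CPM in the library labelled Lrg1 KO and 36.2 CPM in WT. The adaptors Grb10 and Grb14, which bind and inhibit the receptor, were at log2 ratios of 0.55 and 0.46, and Trib2 was at 0.69.

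Sik1, a salt-inducible kinase that restrains the CREB coactivators of the CRTC family, differed most among the 10 genes. It had 798 reads in the library labelled Lrg1 KO and 176 in WT. Its level was 41.4 CPM (38.6 to 44.4) in the library labelled Lrg1 KO and 7.77 CPM (6.66 to 9.01) in WT, a ratio of 5.31 (4.52 to 6.31). A higher ratio was found for 0.114% of measured genes. The related kinases did not share this pattern. Sik2 was at 9.70 CPM in the library labelled Lrg1 KO and 11.0 CPM in WT, and Sik3 at 48.9 CPM and 53.0 CPM, both with intervals that included no difference. The reads of Sik1 per read of Sik2 were 6.05 times (4.68 to 7.84) the WT value, and per read of Sik3 5.77 times (4.78 to 6.98). Among 21 genes of the SIK, LKB1, CRTC and protein kinase A branch, Sik2 and Sik3 included, 20 were measured, with a median log2 ratio of 0.05. Of the 20, 0 were 2-fold apart in either direction, against 4.2% of all measured genes. Crtc2, the main CREB coactivator of liver, was at 0.21, Crtc3 at 0.54, Atf1 at 0.24, Hdac5 at 0.23 and Strada at -0.45.

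**Figure D3:**
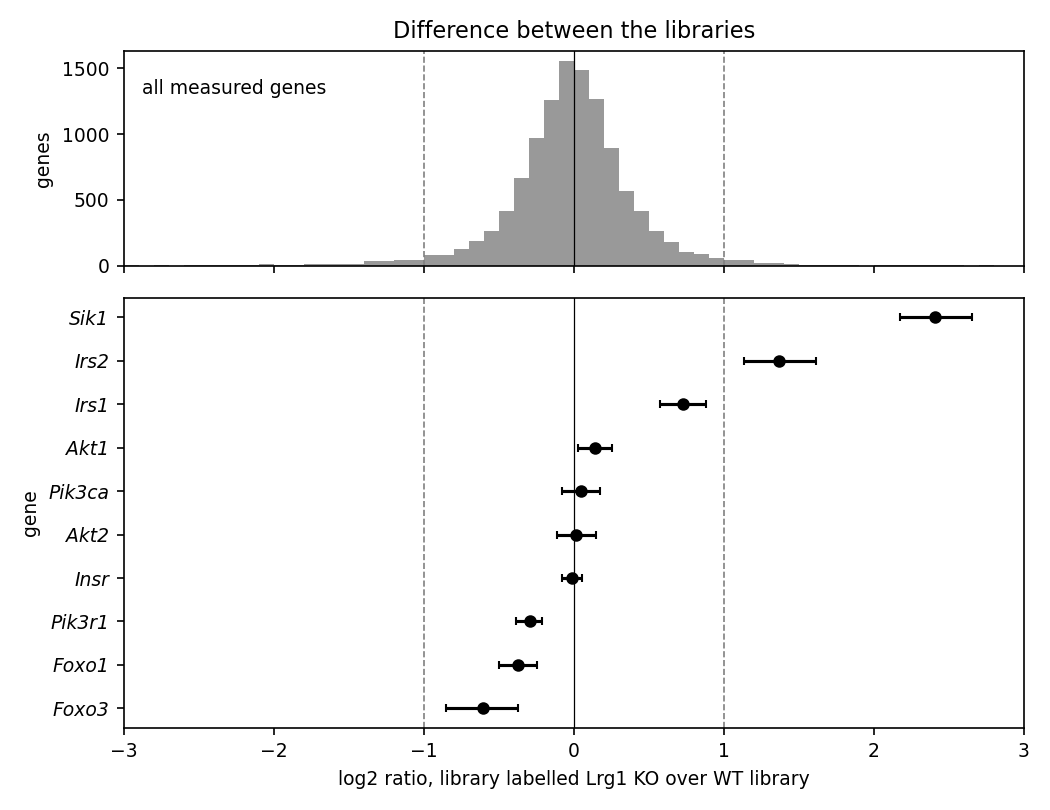
Upper panel, number of measured genes by log2 ratio of the library labelled Lrg1 KO over the WT library, in bins of 0.1, with genes beyond the axis not drawn; lower panel, the same ratio for each of the 10 genes with its exact 95% counting interval. Dashed lines mark 2-fold, which Sik1 (2.41) and Irs2 (1.37) exceed, while Foxo3 (-0.61) is the lowest of the 10.

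Compared per kilobase of exon, as CPM per kilobase (RPKM), Akt1 and Insr ranked highest in both libraries. In the library labelled Lrg1 KO the order was Akt1 at 23.4 RPKM, Insr at 19.5, Pik3r1 at 12.5, Akt2 at 9.62, Sik1 at 9.15, Pik3ca at 5.63, Foxo1 at 4.99, Irs1 at 4.70, Irs2 at 3.87 and Foxo3 at 1.58. The intervals of Akt2 and Sik1, of Pik3ca and Foxo1, and of Foxo1 and Irs1 overlapped. In the WT library the order was Akt1 at 21.2 RPKM, Insr at 19.6, Pik3r1 at 15.4, Akt2 at 9.51, Foxo1 at 6.47, Pik3ca at 5.45, Irs1 at 2.84, Foxo3 at 2.41, Sik1 at 1.72 and Irs2 at 1.49. Overlap there concerned Akt1 and Insr, Irs1 and Foxo3, and Sik1 and Irs2. Irs2 thus stood last in WT and above Foxo3 in the library labelled Lrg1 KO, and Sik1 stood next to last in WT and in the middle of the order in the other library. With exon lengths from the comprehensive annotation, an alternative chosen after the data were seen, Akt1 was at 15.3 RPKM in the library labelled Lrg1 KO and 13.9 RPKM in WT, and Insr at 13.3 and 13.4 RPKM, still the highest pair. Pik3r1 was at 9.41 and 11.5 RPKM. Akt2 then ranked below Sik1 in the library labelled Lrg1 KO (6.52 and 8.06 RPKM) and below Foxo1 in WT (6.44 and 6.47 RPKM). In WT, Akt2 lay inside the interval of Foxo1 (6.11 to 6.83 RPKM), so counting error does not separate their ranks.

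Genes described as FOXO targets went both ways. All 25 were measured, with a median log2 ratio of 0.01. Of the 25, 3 exceeded WT by at least 2-fold, against 1.7% of all measured genes, and 2 were at least 2-fold lower, against 2.5%. G6pc, which releases glucose from hepatocytes, was at 734 CPM in the library labelled Lrg1 KO and 164 CPM in WT, a ratio of 4.47 (4.31 to 4.64). Igfbp1, a secreted IGF-binding protein lowered by insulin, was at 130 CPM and 37.3 CPM (ratio 3.48, 3.22 to 3.77), and Pdk4, which slows glucose oxidation, at 39.0 CPM and 17.7 CPM. Pck1, the gluconeogenic carboxykinase, was at a log2 ratio of 0.58, and the coactivator gene Ppargc1a, whose interval included no difference, at 0.05. The lower genes were Gadd45a, a growth arrest gene (29 reads in the library labelled Lrg1 KO and 189 in WT, -2.45), and the repressor Bcl6 (-1.12). The targets thus included genes well above and well below WT, while Foxo1 and Foxo3 mRNA were both lower.

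Genes described as cAMP and CREB targets had a median log2 ratio of 0.58 over 14 measured of 16. Of these, 10 lay above 0, against 48.3% of all measured genes. Of these 14, 2 were at least 2-fold higher, Nr4a1 and G6pc, against 1.7% of measured genes. Another 2 were at least 2-fold lower, Per1 and Fos, against 2.5%. Nr4a1, an orphan nuclear receptor induced by glucagon, had 271 reads in the library labelled Lrg1 KO and 59 in WT, a ratio of 5.36 (4.06 to 7.28), close in size to that of Sik1. Per1, a clock repressor that is also a CREB target, was at 10.7 CPM in the library labelled Lrg1 KO and 37.4 CPM in WT, and Fos, an immediate early gene, at 3.94 CPM and 8.26 CPM. G6pc, Pck1 and Ppargc1a stand in both target lists.

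Hepatic genes described as raised by insulin lay below their WT levels. Of 10 genes 9 were measured, and all 9 had a log2 ratio below 0, against 51.7% of all measured genes, although 2 of the intervals included no difference and Me1 lay above 0 with scaling by total count, leaving 8 below. Of the 9, 4 were at least 2-fold lower, against 2.5% of measured genes, and 0 at least 2-fold higher, against 1.7%. The median was -0.70. This list, too, was chosen with earlier results of these data known. Srebf1, the lipogenic transcription factor, was at 41.8 CPM in the library labelled Lrg1 KO and 68.0 CPM in WT. Thrsp, Scd1 and Fasn, all of fatty acid synthesis, were at log2 ratios of -3.47, -2.60 and -1.53.

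**Figure D4:**
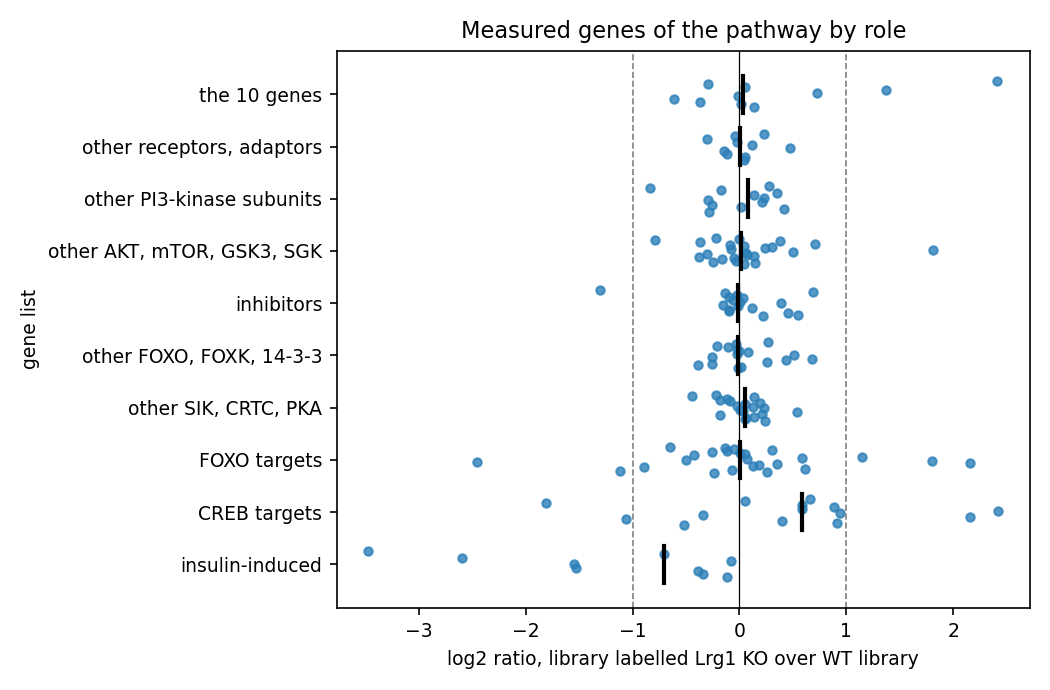
Log2 ratio of the library labelled Lrg1 KO over the WT library for each measured gene (points) of the 10 genes and of 9 further lists of the pathway, with the list median as a black bar and 2-fold as dashed lines; height within a row carries no value. Lists of signalling components centre near 0, CREB targets at 0.58 and insulin-induced genes at -0.70.

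Other sets of genes also differed between the 2 libraries, and their part in the differences of Irs2 and Sik1 was not tested. Of 12 clock genes, 7 differed by at least 2-fold toward a lower level in the library labelled Lrg1 KO, against 2.5% of measured genes. Dbp (-3.31) and Per2 (-2.63) were among these 7. Another 2, Arntl (1.49) and Npas2 (2.21), exceeded WT by at least 2-fold, against 1.7% of measured genes. The summed level of the 12 clock genes was 337 CPM in the library labelled Lrg1 KO and 710.4 CPM in WT. Of 8 sinusoidal endothelial markers 7 were higher, summing to 320 CPM in the library labelled Lrg1 KO and 209 CPM in WT. Of 7 Kupffer cell markers 6 were lower, against 51.7% of all measured genes, summing to 360 CPM and 443 CPM. Of the 7, 1 was at least 2-fold lower, Marco (-2.04), against 2.5% of measured genes. The 6 stellate cell markers summed to 349 CPM and 336 CPM. Of these 6, 5 were above 0 on the log2 scale, against 48.3% of all measured genes. When the deeper library was thinned, 4 were above 0, through Lrat at -0.03. Of the 6, 1 was at least 2-fold lower, against 2.5% of measured genes. That was Col1a1, a collagen gene, at 8.14 CPM in the library labelled Lrg1 KO and 17.1 CPM in WT. Of the 5 adipocyte markers, Lep, Plin1 and Retn were at 0 reads in both libraries, Adipoq had 4 reads in the library labelled Lrg1 KO and 1 in WT, and Cfd had 104 and 711. The 4 skeletal muscle markers summed to 0.985 CPM and 0.927 CPM, and the 5 lymphocyte markers to 2.39 CPM and 1.24 CPM.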

How the data were processed

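RNA was sequenced from 2 mouse liver libraries. Per the labels, oligo-dT enriched mRNA from about 500 ng of total RNA went into stranded libraries, read as single ends of 50 bases. The submitters' processing notes name bcl2fastq, TopHat2, HTSeq and build mm9; annotation, strand setting and versions are not given in those notes. The deposited values are raw counts of reads for each gene symbol, without normalization by the authors. Lines that name no gene did not enter library sizes; reads outside genes were 14.4% of unique alignments in the library labelled Lrg1 KO and 14.0% in WT.

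Counts were scaled with TMM in edgeR 4.0.16 (R 4.3.3; factors 1.03 and 0.972), and log2 ratios used a prior count of 0.5 scaled to library size. Ratios have exact Clopper-Pearson intervals given the sum of both counts, single counts exact Poisson intervals, shares exact binomial intervals, and ratios of ratios exact conditional intervals, all at 95%. These cover counting error only, and PCR copies, not marked by molecular identifiers, may make them too narrow. A gene past 2-fold counted as called. Exon lengths are unions over the basic set of GENCODE M21 (GRCm38), and promoters are from RefSeq (8 of 10 genes matched, not Insr and Sik1). The steps were tested on simulated data. Python 3.11.15 with scipy 1.17.1 was used for intervals.

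The 10 genes and the lists were chosen with earlier results of these data known. Named genes were the 10 genes, Lrg1, the 4 measured members of each list farthest from 0, and 15 pathway genes named whatever their value; Bcl6, Irs3, Insrr, Irs4, Me1, Pnpla3 and the marker and clock genes were named outside this rule, after their values were seen. A few of the genes so chosen are not reported here. Alternatives were other scalings, among them DESeq2 1.42.0 size factors, a prior count of 2, thinning, other minimum counts, 1.5-fold and list means.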

Additional observations from a re-analysis of the deposited data

Results flagged for a closer look

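Alignments that were not unique stand on a line of their own in each file and enter no gene. That line held 58.0% of everything counted in the library labelled Lrg1 KO and 50.3% in WT. It drew attention because no comparison uses it and because it was larger than in WT. The genes or repeats behind it were not analysed here.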

How the results depend on the processing

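The log2 ratios of the 10 genes moved by at most 0.08 under the other scalings, the prior count of 2 and thinning. Sik1 ranged over 2.40 to 2.49, Irs2 over 1.36 to 1.45, Irs1 over 0.72 to 0.81, Foxo1 over -0.37 to -0.29 and Foxo3 over -0.61 to -0.53. Insr was the 1 of the 10 whose sign turned, to 0.07 under total count. The log2 ratio of Lrg1 was -0.30 with total count scaling, and -0.33 when the 20 most abundant genes were left out of the total. At 1.5-fold, by construction, Irs1 joined Sik1 and Irs2, and 1 of the 10 genes, Foxo3, was lower. The mean in place of the median was 0.34 for the 10 genes, 0.42 for CREB targets and -1.20 for insulin-induced genes. The CREB median was 0.67 under total count, and the insulin-induced median was -0.55 with a minimum of 1 read, which adds Pnpla3; the cause of the other shifts was not tested. The medians of the inhibitors and of the FOXO partners were 0.07 each under total count, against -0.01 with TMM. Median and mean differed in sign for these lists, with means of 0.03 and 0.05, and for other PI3-kinase subunits, with a mean of -0.02. Over all genes, the numbers at least 2-fold above and below WT, 194 and 285, follow the filter and threshold by construction: 1243 and 1449 from 1 read, 100 and 166 from 200 reads, 667 and 789 at 1.5-fold. Of the genes past 2-fold, 40.5% were higher; with total count scaling 236 were higher and 251 lower (48.5% higher), and 223 and 259 (46.3%) when the 20 most abundant genes were left out of the total. No paired analysis was possible because each group has 1 library. Counting error is largest for rare genes, since a single read equals 0.0519 CPM in the library labelled Lrg1 KO and 0.0441 CPM in WT.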

Other observations

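Promoter windows were matched for 8 of the 10 genes, 13 windows in all, since Akt1, Akt2 and Pik3r1 have several annotated starts. The GC content was 72.0% for Irs2 and 71.3% for Irs1, with 41 and 28 CpG dinucleotides, beside medians of 52.7% and 7 over 32851 windows, and 9 of the 13 windows lay above that GC median. TGTTTAC, the letters of the FOXO consensus site, matched in 1 of the 13 windows, an Akt1 start (161 bases before it), and in 3.65% of all windows. The full cAMP response element TGACGTCA matched in 0 of the 13 and in 1.79% of all windows. Its core TGACG matched in 5 of the 13, of Akt2, Foxo3, Irs1 and Pik3r1, and in 20.8% of all windows.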
